A study of Mus musculus with 4 samples.

Results

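Sox1, Sox2, Sox3, Sox4, Sox5, Sox6, Sox9 and Sox11, 8 of the 32285 genes counted, were followed from progenitor to neuron in the MGE (medial ganglionic eminence), the germinal zone of the ventral forebrain that makes many inhibitory neurons. They were taken by gene symbol, in cells with at least 3000 unique molecular identifiers (UMIs, counted RNA molecules) and at most 10% mitochondrial UMIs. The data are droplet single-cell RNA-seq of mouse embryos at e14.5 on a C57/BL6 ICR mix background, with 2 libraries of St18 -/- MGE, called null, and 2 of WT MGE. All embryos came from heterozygous parents, so both groups are littermates, and MGE was pooled by genotype with the number and sex of embryos per pool not stated. Per the study's methods, the null is a whole-animal one made from a floxed St18 allele with the germline driver E2a-Cre, and its transcript is still made. St18 is a zinc finger transcription factor, and null was compared with WT to ask what its loss changes in MGE progenitors and neurons. The filter left 6631 and 3878 cells in the null libraries (replicates 1 and 2) with 4511 and 4011 in the WT libraries, and 17981 cells were kept as progenitors or neurons.

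SOX proteins are transcription factors that bind DNA through an HMG box and fall into groups by its sequence. Sox1, Sox2 and Sox3 form the SoxB1 group, which is known for holding neural stem and progenitor cells in their state. Sox4 and Sox11 form the SoxC group, known for switching on neuronal genes in newborn neurons. Sox5 and Sox6 are SoxD proteins, which lack a transactivation domain of their own and are known for roles in cortical neurons and, for Sox6, in the placing and maturing of MGE interneurons. Sox9 is a SoxE protein known for radial glia and glial fate.

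The genes lie apart in the genome (GRCm38, GENCODE M21). Sox1 (ENSMUSG00000096014, chr8:12395295-12400126), Sox2 (ENSMUSG00000074637, chr3:34650405-34652461), Sox3 (ENSMUSG00000045179, chrX:60891366-60893430), Sox4 (ENSMUSG00000076431, chr13:28948919-28953713) and Sox11 (ENSMUSG00000063632, chr12:27334264-27342574) are each annotated with 1 exon. Sox9 (ENSMUSG00000000567, chr11:112782224-112787760) has 3 distinct exons. Sox5 (ENSMUSG00000041540, chr6:143828425-144781977) and Sox6 (ENSMUSG00000051910, chr7:115470872-116038796) have 45 and 42 distinct exons over their transcripts. Sox2 lies within the longer noncoding gene Sox2ot and Sox1 within Sox1ot, on the same strand and with no exon in common, and both noncoding genes are counted on their own rows.

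Promoters are shown for Sox2, a gene whose level changed little from radial glia to basal progenitors, and for Sox4 and Sox11, the pair that rose there together. The 250 bases before the RefSeq start are given 5′ to 3′ on the strand of the gene (GRCm38.p6), with E-boxes (CANNTG, the same on both strands), the letters that proneural bHLH factors are known to bind, in capitals.
Sox2, chr3:34649745-34649994, plus strand: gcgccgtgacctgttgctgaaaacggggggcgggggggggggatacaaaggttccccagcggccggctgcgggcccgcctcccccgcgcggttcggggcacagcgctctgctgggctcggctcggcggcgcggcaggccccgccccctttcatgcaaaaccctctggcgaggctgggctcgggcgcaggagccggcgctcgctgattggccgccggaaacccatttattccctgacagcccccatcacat
Sox4, chr13:28953700-28953949, minus strand: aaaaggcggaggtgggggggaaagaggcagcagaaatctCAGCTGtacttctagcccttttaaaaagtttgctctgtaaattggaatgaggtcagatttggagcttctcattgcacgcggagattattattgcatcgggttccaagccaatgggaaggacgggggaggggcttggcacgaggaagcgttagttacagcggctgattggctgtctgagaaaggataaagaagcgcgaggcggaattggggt
Sox11, chr12:27342719-27342968, minus strand: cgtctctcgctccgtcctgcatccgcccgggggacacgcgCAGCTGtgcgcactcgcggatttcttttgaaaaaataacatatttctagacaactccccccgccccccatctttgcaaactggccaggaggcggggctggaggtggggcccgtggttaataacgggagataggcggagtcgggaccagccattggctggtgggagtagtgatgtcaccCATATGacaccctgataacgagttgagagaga
The Sox2 window held 27 CG pairs and 72% G or C, against a median of 6 CG pairs and 52.4% over 32851 promoters, and no E-box. The Sox11 window held 17 CG pairs, 58% G or C and 2 E-boxes. The Sox4 window held 11 CG pairs, 50.8% G or C and 1 E-box. An E-box was found in 66.2% of all promoters of this length. The SOX core ACAAT, searched on both strands, was in none of the 3 windows and in 27.7% of all promoters. RefSeq held no promoter for Sox3 and Sox9 in the table used. Of the windows not shown, that of Sox1, a gene also called higher in basal progenitor-like cells, held no E-box. Of its bases, 224 lay in its own exon. The Sox5 window held no E-box, and the windows of the Sox6 starts held 1 to 3 each. Whether E-boxes go with these levels was not tested.

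St18 went against its label in 1 library of the null group. It reached 25.2 and 80.5 CPM (UMIs of the gene scaled to 1000000 UMIs of the class) in the neurons of null replicates 1 and 2 and 44.5 and 59.6 CPM in those of WT replicates 1 and 2. In the library labelled null replicate 2, neurons of female type, with 3 or more Xist UMIs and none from Y-linked genes, held 102 CPM of St18 (exact Poisson interval 96.5 to 108) and neurons of male type, with Y-linked and no Xist UMIs, 33.9 CPM (28.2 to 40.3). Xist was near 0 in both WT libraries (0.212 and 0.0780 CPM in neurons), while the neurons of null replicate 1 held 596 CPM and those of null replicate 2 held 1476, so the sex of the pooled embryos differed between the groups. In male cells alone, of which every library held some, St18 was lower in both null libraries, at 29.5 and 33.9 CPM in the neurons of null replicates 1 and 2 and 47.7 and 65.3 CPM in those of WT replicates 1 and 2. Female-type neurons of null replicate 1 held 22.6 CPM (19.2 to 26.5), and the WT libraries held no female-type cells to compare. The high St18 of null replicate 2 was thus in its female cells. Since the null transcript is still made, St18 RNA alone does not give the genotype. Whether the pool of null replicate 2 held female tissue of another genotype was not tested. Both null libraries shared 11 cell barcodes, where 3.78 were expected by chance, and the other pairs 4 to 8, where 2.29 to 4.40 were expected, so that every pair shared more than expected. Libraries are named by their labels. The members' results between null and WT in progenitors and in neurons are given with and without null replicate 2.

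Stages were set by clustering in which no Sox gene was used. Clusters were named from markers: radial glia-like (4 clusters, the stem cells of this tissue), basal progenitor-like (10 clusters, the committed progenitors they give rise to) and neurons. A progenitor cluster, P4, and several neuron clusters with markers of the other class ahead among their leading genes are called border clusters, and progenitor clusters that met no name are left out of the stages. The basal progenitor name asked only that 3 of 7 basal progenitor markers be detected, that they score above those of radial glia and that no radial glia marker be enriched. In 5 of the 10 clusters, with 2268 of 4936 cells, basal progenitor markers scored below the mean of progenitor clusters or below neuron markers, as in P6, led by Sel1l3 and St18. The other 5 clusters, with 2668 cells, are called strict basal progenitors and were tested apart, a choice made after the data were seen. The neuron markers Dcx, Tubb3, Stmn2, Stmn3, Mapt, Map2, Ina and Gap43 summed to 613 to 718 CPM in radial glia-like cells, 1786 to 2036 in basal progenitor-like cells and 6495 to 7634 in the other neurons. The 10 radial glia markers summed to 5954 to 6656 CPM, 1130 to 1355 and 403 to 470 in the same stages. Since stages come from other genes of the same cells, the p-values between stages and subtypes do not measure whether the stages exist. They measure how repeatable a difference was over the 4 libraries, by a spread that the test draws partly from other genes. Levels are summed over cells, so fewer cells with a gene's RNA and less RNA per cell cannot be told apart. Free RNA sets a floor for each gene, so levels are read beside those of 100 microglia and 153 erythroid cells of the same droplets. The free RNA itself, read from droplets under 100 UMIs, held 2567 to 3623 CPM of Sox11, 1199 to 1546 of Sox4, 212 to 382 of Sox2, 148 to 224 of Sox1, 107 to 125 of Sox9, 81.3 to 108 of Sox6, 63.8 to 83.9 of Sox5 and 13.9 to 21.7 of Sox3. These values are the makeup of free RNA and not the level it adds to a cell, which depends on how much of the cell's RNA is free RNA and was not measured. A member's level below them, as of Sox11 and Sox6 in radial glia-like cells and Sox9 in neurons, is therefore read beside microglia and erythroid cells. The low end of the microglia range was set by WT replicate 1 for every member but Sox3. Its 20 microglia held 200264 CPM of erythroid markers, against 56.0 to 61702 in the other libraries. Without it, microglia held 32.0 to 50.5 CPM of Sox1, 84.1 to 112 of Sox2, 418 to 682 of Sox4, 29.1 to 48.0 of Sox5, 20.02 to 42.1 of Sox6, 16.8 to 20.8 of Sox9 and 953 to 1361 of Sox11.

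The SoxB1 genes parted company along this path: Sox3 was highest in radial glia and Sox2 held its level into the border neuron clusters. Sox1 was higher in neurons as a whole than in progenitors, though not in every neuron subtype. Sox3 was at 58.1 and 65 CPM in the radial glia-like cells of null replicates 1 and 2 and at 48.4 and 38.4 in those of WT replicates 1 and 2. It was at 18.2 to 22.5 CPM in basal progenitor-like cells and at 5.62 to 11 in the other neurons, and none of these ranges overlapped. The log2 change was -1.28 (SE 0.08, adjusted p = 9.87e-18, by the quasi-likelihood test of edgeR, adjusted after Benjamini and Hochberg, as are all adjusted p-values here) from radial glia to basal progenitors and -1.56 (SE 0.07, adjusted p = 1.02e-12) from progenitors to neurons as a whole. Outside this path, 33 oligodendrocyte precursor-like cells held more, 74.4 to 131 CPM (40 UMIs). Microglia held 2.08 to 4.01 CPM of Sox3 and erythroid cells none.

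Sox2 did not follow Sox3. Radial glia-like cells held 756 and 724 CPM in the null libraries (replicates 1 and 2) with 534 and 567 in the WT libraries, and basal progenitor-like cells 704, 759, 581 and 557 CPM in the same order. Library by library the log2 ratio of basal progenitors to radial glia lay on either side of 0, from -0.10 to 0.12, and the fitted change of 0.10 (SE 0.03, adjusted p = 0.0134) was lost when library totals replaced TMM scaling (0.01, adjusted p = 0.73), without null replicate 2 (adjusted p = 0.134), without WT replicate 1 (adjusted p = 0.23) and in strict basal progenitors (0.05, adjusted p = 0.156). Border neuron clusters still held 651 to 773 CPM. In the other neurons it was at 311 to 510 CPM, below the border clusters in every library, and over both classes as a whole it fell by 0.48 on the log2 scale (SE 0.04, adjusted p = 3.77e-09). The other neurons pool subtypes, named below, that lay far apart. Sox2 was at 576 to 722 CPM in cortical interneuron precursor-like and 513 to 673 in CGE-like neurons. It was at 57.7 to 108 CPM in LGE-like and 27.2 to 87.2 in ventral telencephalic projection-like neurons. Microglia held 24.1 to 112 CPM of Sox2.

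Sox1 was lowest in radial glia-like cells, at 163 to 263 CPM, and reached 210 to 333 CPM in basal progenitor-like cells, 293 to 542 in the border progenitor cluster, 259 to 379 in border neuron clusters and 211 to 381 in the other neurons. The ranges of neighbouring stages overlap, but within each of the 4 libraries basal progenitors were above radial glia and neurons as a whole above progenitors. The log2 change was 0.42 (SE 0.04, adjusted p = 3.02e-12) for the first step and 0.23 (SE 0.04, adjusted p = 8.67e-05) for neurons against progenitors. That second change is of pooled neurons. Sox1 was at 443 to 621 CPM in cortical interneuron precursor-like and 366 to 543 in CGE-like neurons, named below. It was at 114 to 165 CPM in LGE-like and 15.5 to 43.9 in ventral telencephalic projection-like neurons. The first step was not found in strict basal progenitors, which held 164 to 256 CPM (log2 change 0.07, adjusted p = 0.147), and the remaining basal progenitor-like clusters held 252 to 418 CPM. The neighbouring noncoding gene Sox1ot, on the same strand, fell by 0.95 on the log2 scale from progenitors to neurons as a whole (SE 0.04, adjusted p = 2.6e-13).

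The SoxC genes rose early, before the neuron stage. Sox11 was at 1319 and 1558 CPM in the radial glia-like cells of null replicates 1 and 2 and at 1023 and 1061 in those of WT replicates 1 and 2. In basal progenitor-like cells it was at 5572, 6563, 4518 and 4853 CPM in the same order, a log2 change of 2.20 (SE 0.03, adjusted p = 1.02e-45). It was highest in the border progenitor cluster, at 6861 to 10276 CPM, and the other neurons, whose range overlaps it, held 5824 to 8841 CPM. Sox4 moved the same way over a smaller range, from 943 to 1242 CPM in radial glia-like cells to 1827 to 2381 in basal progenitor-like cells (log2 change 1.03, SE 0.03, adjusted p = 2.04e-30), with no overlap. In strict basal progenitors the changes were 1.94 for Sox11 and 1.10 for Sox4. From progenitors to neurons as a whole Sox11 rose by 0.69 (SE 0.04, adjusted p = 9.92e-11) and Sox4 by 0.28 (SE 0.04, adjusted p = 2.77e-06) on the log2 scale. Microglia held 208 to 1361 CPM of Sox11, which overlaps the radial glia-like cells with or without WT replicate 1, and 245 to 682 of Sox4, which does not. Erythroid cells held 73.1 to 264 CPM of Sox11 and 28.8 to 56.7 of Sox4, below every library of radial glia-like cells. Whether the radial glia level of Sox11 exceeds free RNA thus depends on the cells taken as the floor.

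The SoxD genes split by stage. Sox6, at 22.6 to 47.3 CPM in radial glia-like cells, lay within the level of microglia (0 to 42.1 CPM) in 3 of 4 libraries and above the 6.65 to 16.5 CPM of erythroid cells. It was at 114 to 174 CPM in basal progenitor-like cells (log2 change 2.18, SE 0.07, adjusted p = 1.85e-30). Much of that rise lay in the clusters with low basal progenitor scores, at 203 to 293 CPM, while strict basal progenitors held 44.8 to 66.6 CPM (log2 change 0.90, adjusted p = 3.72e-18). Border neuron clusters held 343 to 393 CPM, and neurons as a whole were 1.56 above progenitors on the log2 scale (SE 0.04, adjusted p = 2.56e-15). Sox5 was level between radial glia-like cells (146 to 230 CPM) and basal progenitor-like cells (142 to 208 CPM), with a log2 change of -0.01 (SE 0.05, adjusted p = 0.892). Strict basal progenitors were lower, at 105 to 161 CPM (log2 change -0.39, adjusted p = 3.98e-12), and the remaining basal progenitor-like clusters held 190 to 259 CPM. It was at 175.5 to 229 CPM in border neuron clusters and at 70.5 to 139 in the other neurons, with no overlap, and neurons as a whole were lower than progenitors (log2 change -0.54, SE 0.04, adjusted p = 3.90e-09). The 6 noncoding genes named for Sox5 held at most 9 UMIs each in any class of any library.

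Sox9, the SoxE gene, fell in both comparisons. It was at 341 and 432 CPM in the radial glia-like cells of null replicates 1 and 2 and at 297 and 319 in those of WT replicates 1 and 2, and at 125 to 161 CPM in basal progenitor-like cells (log2 change -1.26, SE 0.04, adjusted p = 9.99e-29). In strict basal progenitors the change was -1.05. Oligodendrocyte precursor-like cells, outside this path, held the most, 1076 to 1626 CPM. The other neurons held 34.9 to 50 CPM, microglia 4.01 to 20.8 CPM and erythroid cells 0 to 2.05 CPM. The log2 change of neurons as a whole against progenitors was -1.89 (SE 0.04, adjusted p = 2.40e-16).

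All 8 members passed the test between neurons and progenitors, 4 higher and 4 lower, and 7 of 8 between basal progenitors and radial glia. Such calls are common here: 79.6% of 14378 genes and 65.6% of 13063 genes passed in these comparisons, with 40.2% of genes higher and 39.4% lower in neurons and 32.3% higher and 33.3% lower in basal progenitors, so the directions and sizes, and not the counts, describe the genes.

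**Figure D1:**
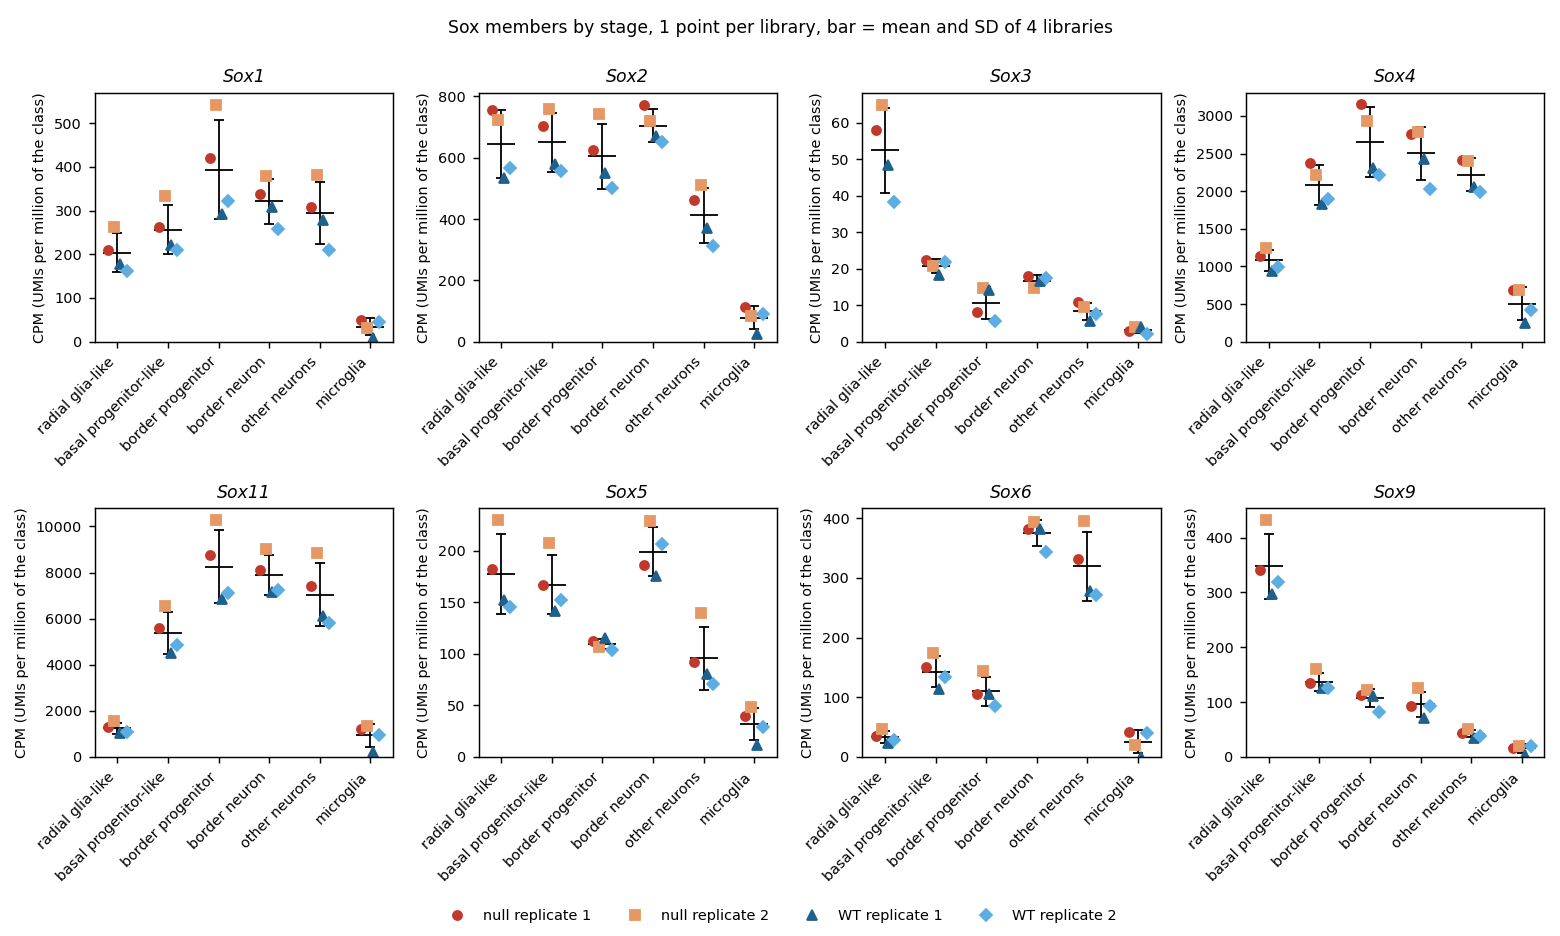
Level of each member (vertical axis, CPM, from 0) in 5 stages of the lineage and in microglia, with 1 point per library and bars for the mean and SD of the 4 libraries. Of the 5 stages, radial glia-like cells hold the most Sox3 and Sox9, Sox4 and Sox11 step up in basal progenitor-like cells, Sox6 steps up in border neuron clusters and Sox2 is lowest of the lineage stages in the other neurons.

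A second ordering, by the marker score of each cell, placed the members without stage names. Progenitors and neurons of each library were ranked by neuron minus progenitor marker score and cut into 10 bins of equal size. Neurons made up at most 0.271% of bin 1 and at least 99.7% of bin 10. Sox3 and Sox9 were highest in bin 1 in all 4 libraries, with means of 45.7 and 304 CPM, and Sox9 dropped in every bin to 16.1 CPM in bin 10. Sox5 was highest in bin 5 in all 4 libraries (213 CPM, SD 41.1), where 47.1% to 72.1% of the cells were neurons. Sox11 was highest in bin 6 or 7 in each library, rising from a mean of 1785 CPM in bin 1 to 8567 in bin 7 and standing at 4483 in bin 10. Sox6 was highest in bins 6 to 8, and went from 32.7 CPM in bin 1 to 417 in bin 8 and 128 in bin 10. Sox2 stayed between 617.9 and 661 CPM over bins 1 to 7 and was at 145 CPM in bin 10. Sox1 went from 189 CPM in bin 1 to 381 in bin 7 and 128 in bin 10. Sox4 stood at 1355 CPM in bin 1, at 2130 in bin 3 and still at 2195 in bin 10. The score uses the same marker lists as the classes, and its bins pool the neuron subtypes named below. Mean neuron marker scores were 0.46 to 0.98 in LGE-like clusters and -0.12 and 0.35 in cortical interneuron precursor-like ones. Subtype shares per bin were not measured, so a fall in late bins cannot be told apart from a change of subtypes.

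**Figure D2:**
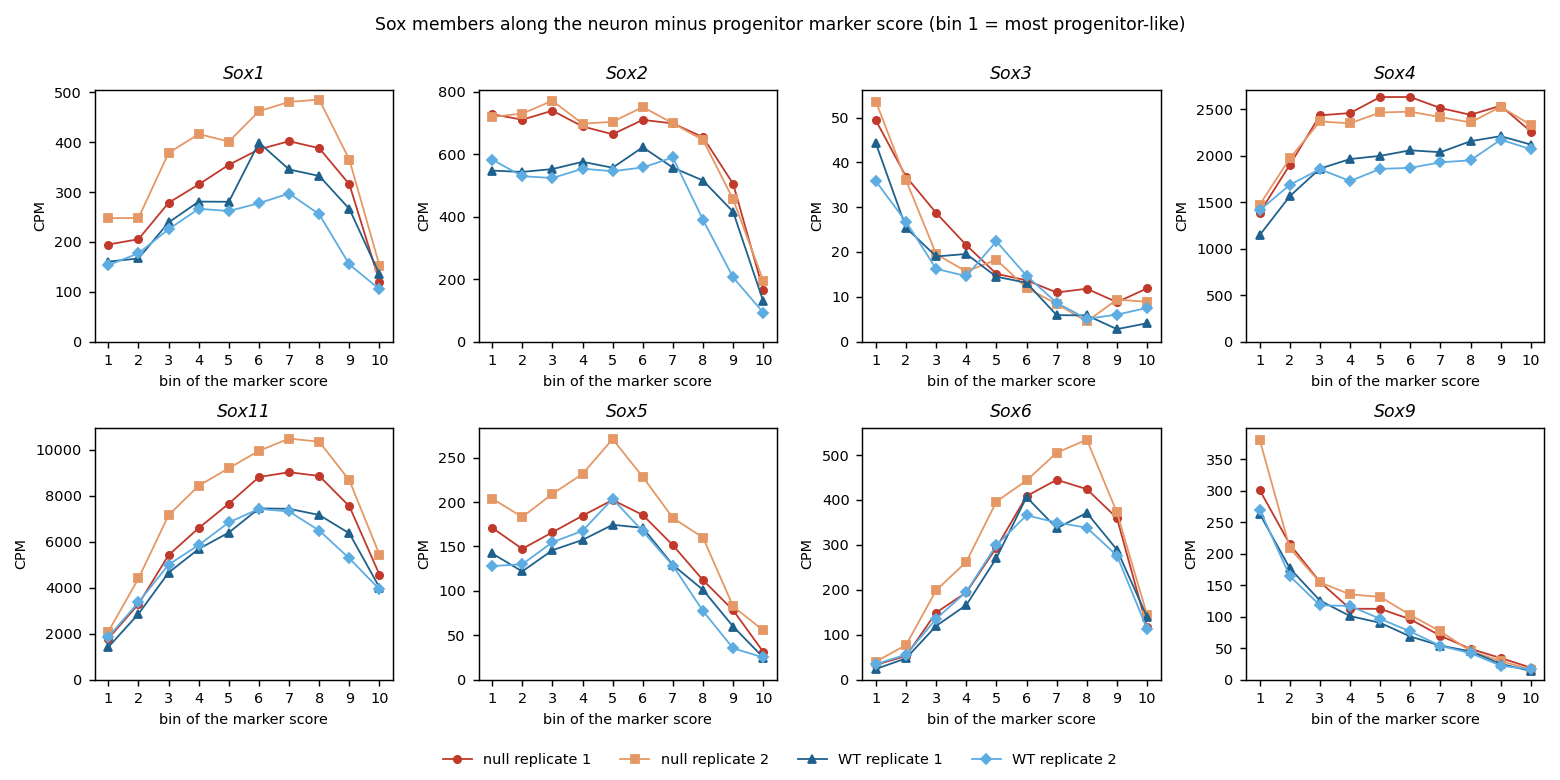
Level of each member (CPM, from 0) over 10 equal bins of the neuron minus progenitor marker score, with 1 line per library and bin 1 the most progenitor-like. Sox2 is flat to bin 7 and then drops, Sox5 has its top in bin 5, and Sox4 holds from bin 3 to bin 10. Bins pool neuron subtypes, whose shares per bin were not measured.

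Shares of cells with a UMI were taken after each cell was thinned to 3000 UMIs. A Sox9 UMI was found in 50.7% to 63.3% of radial glia-like cells, 27.1% to 33.0% of basal progenitor-like cells and 9.18% to 11.8% of the other neurons, against 3% of microglia (exact Clopper-Pearson interval 0.623% to 8.52%). A Sox11 UMI was found in 87.4% to 94.5% of radial glia-like cells and in 99.6% to 100% of basal progenitor-like cells, against 59.0% of microglia (48.7% to 68.7%). A Sox6 UMI was found in 7.17% to 12.5% of radial glia-like cells and 57.9% to 60.8% of cells of border neuron clusters, against 5% of microglia (1.64% to 11.3%). Sox3 was seldom caught, in 9.23% to 15.9% of radial glia-like cells and 1% of microglia. Without thinning, the median share over libraries in progenitors and in neurons as a whole was larger for every member, as for Sox9 in progenitors (60.8% against 35.7%).

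Stem-cell and neuronal Sox RNAs were found in the same cells. After thinning, 46.6% of radial glia-like cells had both Sox2 and Sox9 UMIs and 72.8% both Sox2 and Sox11. In basal progenitor-like cells 80.2% had both Sox2 and Sox11, and in border neuron clusters 48.4% had both Sox2 and Sox6. Free RNA in the droplets adds to these shares, and RNA that was not caught or was thinned away lowers them, so they say only that both RNAs were caught.

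Other regulators of this path were read from lists. Of 15 neural stem cell regulators 14 fell from progenitors to neurons and none rose (median log2 change -1.57, against 0.02 for all genes tested). The largest changes were in Hmga2, a chromatin protein of early stem cells (-3.44), Gli3, a transcription factor of the hedgehog pathway (-3.15), Lhx2, a homeobox factor of forebrain progenitors (-2.92), and Fgfr3, an FGF receptor (-2.84). All 12 tested of 13 neuronal differentiation regulators rose (median 1.21), St18 itself among them and led by Myt1l, a repressor of non-neuronal genes (3.29), and Nhlh2, a bHLH factor of young neurons (3.19), with Scrt1 at 1.80 and Scrt2 at 1.68. Of 9 ganglionic eminence factors, 6 rose and 3 fell, with changes of 1.19 in Lhx8, 1.14 in Lhx6 and 0.97 in Dlx5 among those that rose and -0.65 in Dlx1, -0.64 in Nkx2-1 and -0.26 in Dlx2, which fell. Of all genes 40.2% rose and 39.4% fell between these classes. Of 12 other Sox genes, 5 could be tested. Sox21 (-3.31), Sox8 (-2.06), Sox10 (-1.97) and Sox13 (-0.55) fell, and Sox12, the third SoxC gene, rose (0.67). From radial glia to basal progenitors, 14 of 15 stem cell regulators fell and 11 of 11 differentiation regulators tested and 9 of 9 ganglionic eminence factors rose, where 33.3% of all genes fell and 32.3% rose, and 4 of 5 other Sox genes tested fell, with Sox12 at -0.11 (adjusted p = 0.107). The Sox10 changes rest on few UMIs, 43 in all progenitors and neurons.

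Among neurons, Sox1 and Sox2 separated 2 kinds of subtype. Neuron clusters were named from subtype markers, which included no Sox gene: cortical interneuron precursor-like (Maf, Mef2c, Erbb4 and others), CGE-like (Nr2f2, Prox1 and others, for the caudal eminence), LGE-like (Ebf1, Foxp1 and others, for the lateral eminence) and ventral telencephalic projection-like (Lhx8, Gbx1, Zic1 and others). CGE-like neurons were 1 cluster, N6, with 586 cells. Of interneuron precursor markers, 6 were detected in at least 25% of its cells and 1 was enriched, against 4 and 4 CGE markers. St18 was higher in N6 than in other neurons (log2 change 1.80, SE 0.08, adjusted p = 3.66e-34). The name thus rests on the enriched CGE markers, and where these cells arose was not tested. It stands beside the highest Sox6 level of the named subtypes, given below, in a gene known for MGE interneurons. CGE-like is therefore a marker name and assigns no origin. Each subtype was compared with the other neurons of the same libraries. Ventral telencephalic projection-like neurons were clusters N11 and N23, with 407 cells, both with Zic1 and Slc10a4 among their leading genes and N23 also with Slc18a3. The name rests on the marker list, and whether these are projection neurons was not tested. Clusters N5 and N8, with Lhx8 and Zic1 among theirs, and N10, with Gbx1, met no name. These unnamed clusters had 605, 458 and 402 cells and counted among the other neurons in that comparison. No name was met by 6379 of 10176 neurons, and pallial-like cells, of which WT replicate 1 held 4, were not tested.

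Sox2 was at 722 and 639 CPM in the cortical interneuron precursor-like neurons of null replicates 1 and 2 and at 576 and 595 in those of WT replicates 1 and 2. CGE-like neurons held 513 to 673 CPM. It was at 57.7 to 108 CPM in LGE-like neurons and 27.2 to 87.2 in ventral telencephalic projection-like neurons, with no overlap with the first pair and within the 24.1 to 112 CPM of microglia but above the 6.65 to 18.9 CPM of erythroid cells, so that whether these levels exceed free RNA depends on the cells taken as the floor. The log2 change against other neurons was 0.52 (SE 0.04) in interneuron precursor-like, 0.38 (SE 0.05) in CGE-like, -2.82 (SE 0.07) in LGE-like and -3.46 (SE 0.10) in ventral projection-like neurons, with adjusted p-values of 7.83e-15, 1.79e-08, 1.70e-24 and 1.21e-41. Sox2 UMIs were in 77.6% of thinned interneuron precursor-like cells (75.6% to 79.6%), 14.6% of LGE-like cells (12.6% to 16.9%) and 9.58% of ventral projection-like cells (6.90% to 12.9%), against 19.0% of microglia (11.8% to 28.1%) and 4.58% of erythroid cells (1.86% to 9.20%).

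Sox1 followed Sox2 in most but not all of these neurons. It was at 443 to 621 CPM in interneuron precursor-like neurons and 366 to 543 in CGE-like neurons, and at 15.5 to 43.9 CPM in ventral projection-like neurons, within the 8.02 to 50.5 CPM of microglia and above erythroid cells in every library. LGE-like neurons stood between, at 114 to 165 CPM, above microglia in every library. The log2 changes against other neurons were 0.98 (SE 0.04), 0.66 (SE 0.05), -3.24 (SE 0.10) and -1.23 (SE 0.08) in that order.

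The LGE-like level of Sox1 was uneven between clusters. Cluster N13, led by Npy1r, Pbx3, Foxp2 and Zfp503, held 407 CPM of Sox1 (SD 21.4, range 380 to 426 over 4 libraries), while the LGE-like clusters N9, N16 and N19 held means of 74.8, 50.9 and 89.0 CPM. Sox2 was at 63.8 CPM (SD 24.3) in N13, within the range of microglia, whereas N19, led by Six3 and Tshz2, held 228 CPM of Sox2 (SD 127, range 115 to 409). N13 and N19 were singled out after their values were seen, and N13 had 263 cells.

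Sox6 cut the subtypes in another way. It was at 331 to 510 CPM in interneuron precursor-like, 538 to 653 in CGE-like and 242 to 432 in ventral projection-like neurons, and at 10.2 to 22.6 CPM in LGE-like neurons. The LGE-like level lay within the 0 to 42.1 CPM of microglia and overlapped the 6.65 to 16.5 CPM of erythroid cells, so the floor limits the size of its change. The log2 change was -4.42 in LGE-like neurons (SE 0.10, adjusted p = 1.10e-25) and -0.14 in ventral projection-like neurons (SE 0.06, adjusted p = 0.0765), which passed without null replicate 2 (-0.20, adjusted p = 0.0316). Sox6 UMIs were in 46.9% of thinned ventral projection-like cells (42% to 51.9%), neurons in which Sox1 and Sox2 lay within the range of microglia.

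Sox11 was at 7724 to 10523 CPM in interneuron precursor-like and 8023 to 10834 in CGE-like neurons, and at 3297 to 4672 in LGE-like and 3363 to 5262 in ventral projection-like neurons, with no overlap between the pairs. Its log2 change was -1.02 (SE 0.04, adjusted p = 3.19e-18) in LGE-like and -0.93 (SE 0.03, adjusted p = 1.21e-41) in ventral projection-like neurons. Sox4, the other SoxC gene, differed little. The log2 change of Sox4 was 0.06 (SE 0.03), -0.04 (SE 0.05) and 0.02 (SE 0.04) in interneuron precursor-like, CGE-like and LGE-like neurons, with adjusted p-values of 0.140, 0.606 and 0.710. In ventral projection-like neurons it was 0.11 (SE 0.03, adjusted p = 0.00329), which was lost without WT replicate 2 (0.08, adjusted p = 0.258).

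Sox5, Sox9 and Sox3 were each highest in CGE-like neurons among the tested subtypes. Sox5 was at 131 to 212 CPM in CGE-like and 72.1 to 103 in interneuron precursor-like neurons, and at 14.7 to 29.0 and 18.6 to 25.2 CPM in LGE-like and ventral projection-like neurons, within the 12 to 48 CPM of microglia and above the 4.43 to 9.69 CPM of erythroid cells. Sox9 was at 51.3 to 90.1 CPM in CGE-like and 35.2 to 49.8 in interneuron precursor-like neurons and at 12.5 to 27.9 in LGE-like and ventral projection-like neurons. The last 2 overlapped the 4.01 to 20.8 CPM of microglia and lay above the 0 to 2.05 CPM of erythroid cells. Sox3 was at 3.05 to 4.47 CPM in interneuron precursor-like neurons and 8.02 to 26.3 in CGE-like neurons, where its log2 change of 0.66 (SE 0.21, adjusted p = 0.0201) was lost without null replicate 1 (0.34, adjusted p = 0.509) and without WT replicate 2 (0.53, adjusted p = 0.16).

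In each of the 4 subtypes 7 of 8 members passed the test, where 30.1%, 15%, 45.1% and 32.3% of genes did in interneuron precursor-like, CGE-like, LGE-like and ventral projection-like neurons. In LGE-like neurons 7 were lower and none higher, against 22.4% and 22.7% of genes. In CGE-like neurons 7 were higher and none lower, against 6.48% and 8.55% of genes.

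**Figure D3:**
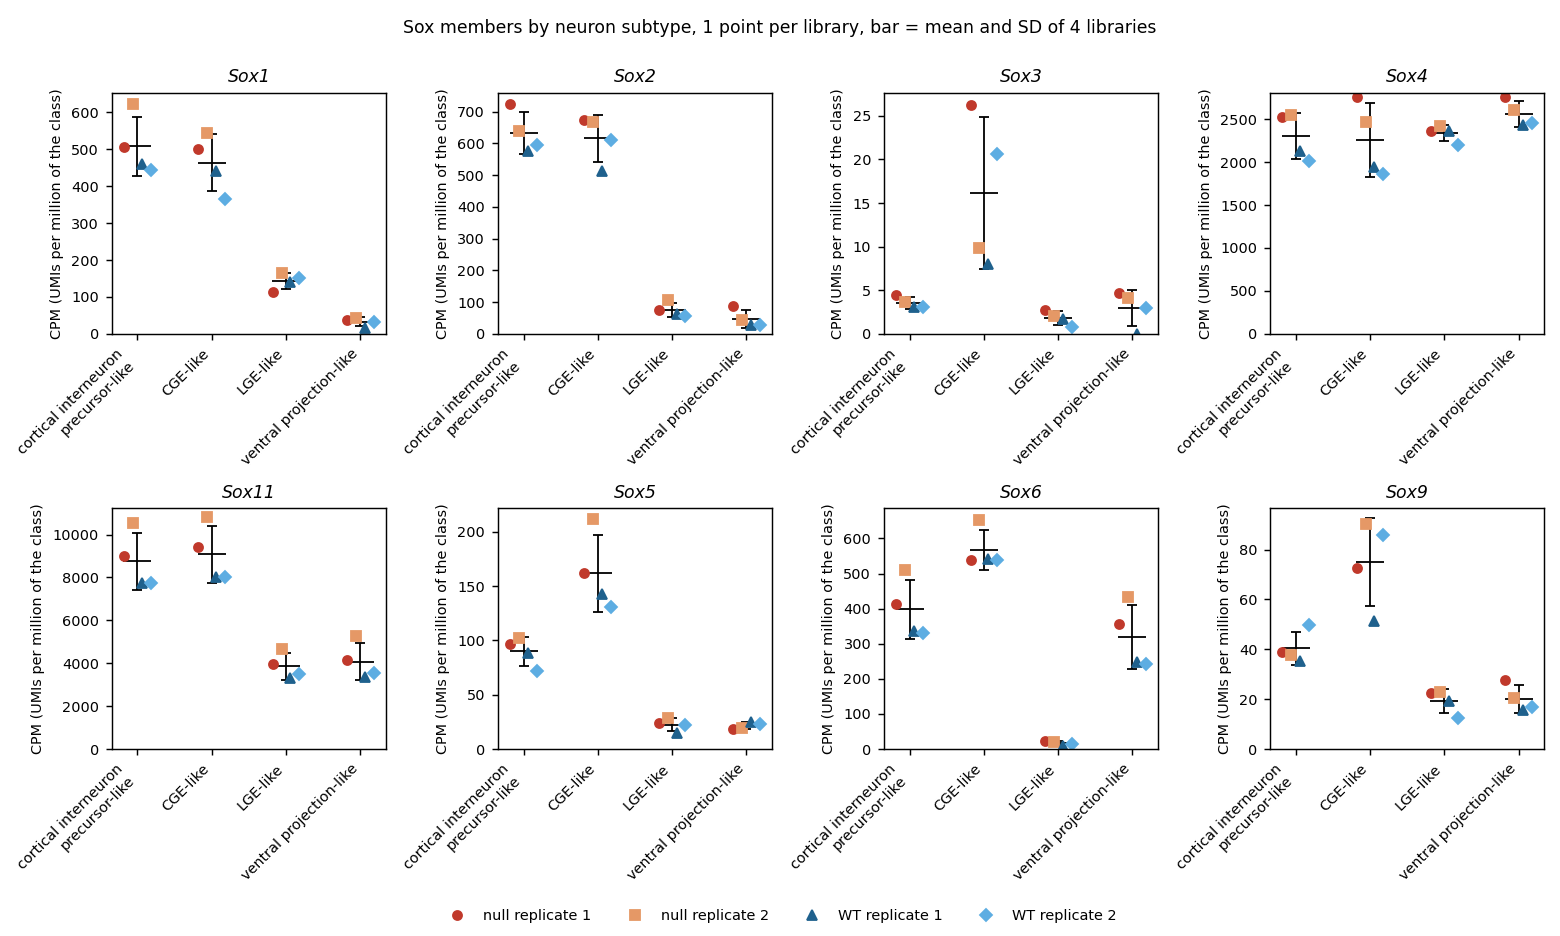
Level of each member (CPM, from 0) in 4 named neuron subtypes, with 1 point per library and bars for the mean and SD of the 4 libraries. Sox2 is near 0 in LGE-like and ventral projection-like neurons, Sox6 is near 0 in LGE-like neurons, and Sox4 differs little.

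Over single clusters, the members' tops fell in several clusters, some of them shared. Of 31 clusters with at least 20 cells in every library, Sox9 (608 CPM, SD 37.8) and Sox3 (65.2 CPM, SD 10.5) were highest in the radial glia-like cluster P9, led by Apoe, Fabp7, Bcan and Slc1a3, genes of radial glia and astrocytes. Sox5 was highest in N1 (314 CPM, SD 50.5), a border neuron cluster led by Nav2, Prox1 and Ccnd2. Sox4 was highest in N18 (3071 CPM, SD 580), a border neuron cluster led by Lmo1, St18 and Helt. Sox1 (550 CPM, SD 23.6) and Sox11 (10199 CPM, SD 646) were highest in N2, led by Epha4, Rfx4 and Neb. Sox2 was at nearly one level in P13 (894 CPM, SD 170.5), N2 (893 CPM, SD 81.0) and N4 (891 CPM, SD 101), whose means differed by less than the spread between libraries. Sox6 was highest in the CGE-like cluster N6 (567 CPM, SD 57.2), in which interneuron precursor markers were detected as well. N2 (555 CPM, SD 30.4) did not differ from N6 beyond that spread. Sox3 was also at 36.1 CPM (SD 14.47) in N12 and 31.2 CPM (SD 11.95) in N17, unnamed neuron clusters led by Peg10 and Calb1 and by Nr2f2 and Scg2, with means above every library of basal progenitor-like cells, which were noticed after the values were seen.

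**Figure D4:**
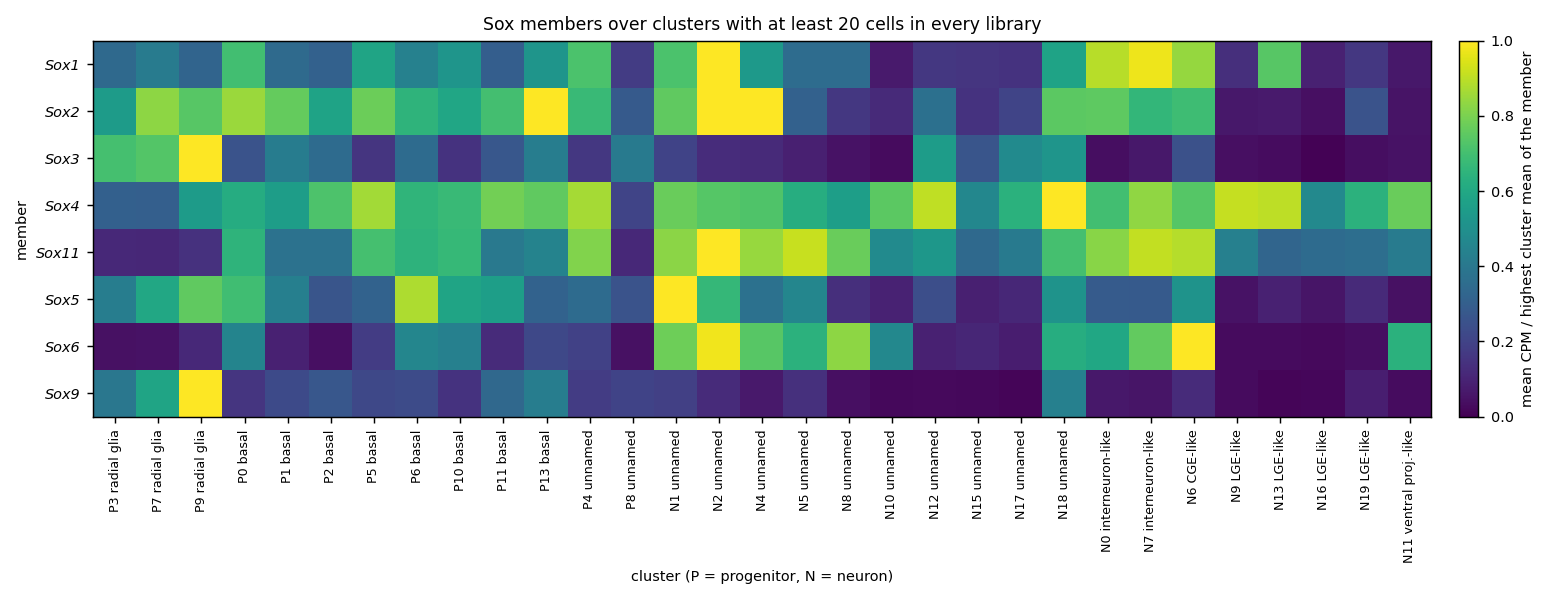
Mean CPM of each member over 31 clusters with at least 20 cells in every library, as a share of the member's highest cluster (colour). Columns are clusters, progenitors first. Sox1 stands out in the LGE-like cluster N13, where Sox2 and Sox6 are near 0.

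The genes most like each member over these 31 clusters were listed as a description, from 6433 genes outside the family. Clusters share the 4 libraries and are not independent. Sox11 ran closest with Arhgef2 (Pearson r 0.96), Smarce1 (0.96) and Dlx6os1 (0.96), and Sox9 with Gab1, Jam2 and Peli2 (0.93 each). Sox6 ran with Dlx1as (0.91), Lhx6 (0.90), a LIM homeobox factor of MGE interneurons, and Satb1 (0.88), a chromatin protein of the same cells. Sox2 and Sox5 shared Phactr4 (0.90 and 0.88) and Akap13 (0.88 and 0.88) and correlated with each other (0.90). Beside these, Sox2 was like Lrrn1 (0.90) and Sox5 like Hadha (0.89). Sox1 ran with Epha4 (0.83), Pgm2 (0.81) and Ackr3 (0.81), Sox3 with Gkap1 (0.85), Pkig (0.82) and Tsen15 (0.82), and Sox4 with Klhl24 (0.88), Zfp68 (0.87) and Ulk1 (0.87). Within groups, r was 0.74 for Sox4 with Sox11, 0.73 for Sox1 with Sox2, 0.61 for Sox2 with Sox3, 0.19 for Sox1 with Sox3 and 0.40 for Sox5 with Sox6.

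No member passed the test between null and WT, where 0.0221% of 13573 genes passed in progenitors and 0.0736% of 13587 in neurons. Sox1 was at 252 and 317 CPM in the progenitors of null replicates 1 and 2 and at 209 and 201 in those of WT replicates 1 and 2, and at 317, 381, 286 and 220 CPM in neurons in the same order. Sox2 was at 710, 733, 556 and 546 CPM in progenitors and 541, 555, 443 and 381 in neurons. Sox11 was at 4385, 5251, 3558 and 3907 CPM in progenitors and 7587, 8877, 6356 and 6119 in neurons. For all 8 members, in both classes, both null libraries lay above both WT libraries.

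That order was common among genes: both null libraries lay above both WT libraries for 48.4% of genes in progenitors and 42.7% in neurons, and below both for 11.2% and 13.4%. With TMM scaling the log2 changes of the members were 0.11 to 0.28 in progenitors and 0.12 to 0.31 in neurons. Adjusted p-values were 0.277 to 0.669 in progenitors and 0.317 to 0.674 in neurons. In all 3 and 10 genes passed, and 2352 and 2323 had an unadjusted p under 0.05. DESeq2 called 325 and 298 genes and no member.

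These counts moved with single libraries, as they did with scaling, filter and tool. With 1 null library left, the spread comes from the WT pair alone and the lone library is assumed to vary like it, so these fits compare 1 library with WT and not the genotypes. Without null replicate 2, whose St18 went against its label, Sox1, Sox2, Sox4 and Sox11 passed in progenitors, higher in null (log2 change 0.18, 0.24, 0.21 and 0.11), where 14.7% of genes passed, and no member passed in neurons, where 2.67% did. Without null replicate 1, the fit sets null replicate 2, in which St18 was not lower than in WT, alone against WT. More members and a larger share of genes then passed than without null replicate 2, in both classes. In male cells alone (a Y-linked UMI and none of Xist), 1 gene passed in each class, and with equal cells per neuron cluster 6 did in neurons. No member was among them, where almost no gene passed.

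Other values moved with the genotype. Median UMIs per cell were 6874 and 9224 in the null libraries (replicates 1 and 2) with 6285.5 and 6151.5 in the WT libraries. Cluster N2, highest in Sox1 and Sox11 and with Xist among its leading genes, held 322 and 411 neurons of null replicates 1 and 2 and 79 and 59 of WT replicates 1 and 2. Cluster N3, led by Npy and Rnd2, went the other way, with 121 and 18 neurons of null and 395 and 292 of WT replicates 1 and 2. Beyond the fit of neurons with equal cells per cluster, given above, the part of these values in the members' levels was not tested.

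The change from progenitor to neuron did not differ between genotypes beyond the test for any member. The difference of the log2 changes, null minus WT, was 0.00 to 0.17 over the 8 members, with adjusted p-values of 0.534 to 0.999, and with library totals in place of TMM it lay on either side of 0, from -0.08 in Sox6 to 0.09 in Sox9. In this comparison 120 of 14378 genes (0.835%) passed and 1244 had an unadjusted p under 0.05. Between libraries the log2 ratio of neurons to progenitors had an SD of 0.08 to 0.17.

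**Figure D5:**
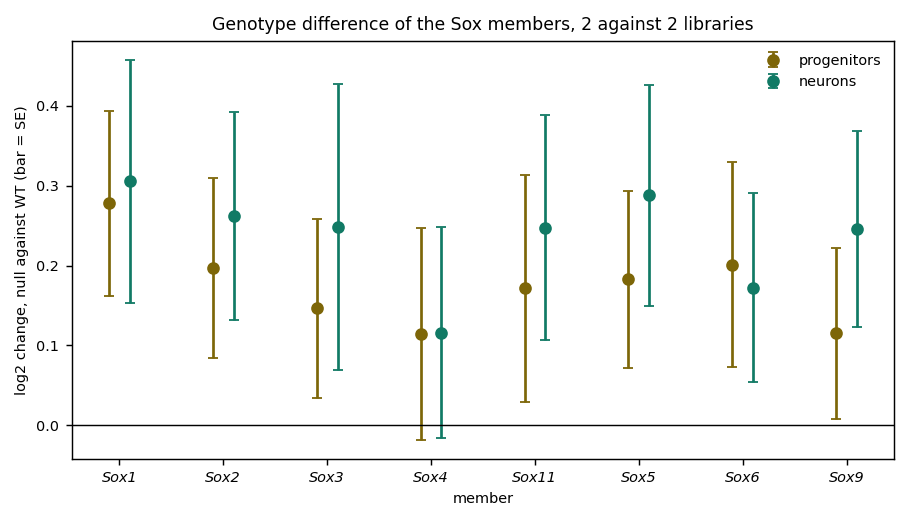
Log2 change of each member between null and WT (vertical axis) in progenitors and neurons, from 2 against 2 libraries, with bars for the SE. All points lie above 0 and none passed the test.

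Sox3, the X-linked member, was read by sex in the libraries that held both. In the progenitors of null replicate 1 it was at 36.9 CPM (exact Poisson interval 33.1 to 40.9) in cells with Xist and 29.7 CPM (26.7 to 32.9) in cells with Y-linked UMIs. In those of null replicate 2 it was at 30.8 CPM (27.8 to 34.0) and 35.0 CPM (29.9 to 40.7), so the order was not the same in both libraries. Both WT libraries held no cell with 3 Xist UMIs.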

How the data were processed

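The authors deposited UMI counts per gene and droplet barcode as unfiltered 10x matrices, with Cell Ranger 5.0.1 and GRCm38 in the submitters' processing notes and Cell Ranger 4 in the matrix header. No count had been normalized, and replicate numbers are names given in accession order. The 8 members and all gene lists were chosen with earlier results of these data known.

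The cell filter was 3000 or more UMIs, 200 or more genes and no more than 10% mitochondrial UMIs. Scrublet (scanpy 1.11.5) marked under 0.05% of cells by its own threshold, so cells were removed from the top of its score at 0.8% per 1000 cells, which left 18267 of 19031. Libraries held 70991150 to 92984713 UMIs. Clustering used Seurat 5.3.0 (49 principal components, resolution 1.4, 2000 variable genes from which Sox genes were then left out), and clusters were named from markers without Sox genes. Per library and class, the counts were added up and tested with edgeR 4.0.16 (quasi-likelihood test, TMM, filterByExpr, Benjamini-Hochberg adjustment over all genes tested, threshold 0.05), with library as a block between stages and subtypes. DESeq2 1.42.0 was an alternative, as were library totals, no filter on low counts, doublets kept, other cell filters, male cells, equal cells per cluster, each library left out and, chosen after seeing the data, the 5 strict basal progenitor clusters, whose basal progenitor score was above 0 and above their neuron score. Pools and not single embryos are the replicates, so p-values refer to the spread between these libraries, which the test estimates for each gene partly from other genes. The tests were run on simulated counts with few changed genes and a shared mean profile for all libraries. That checked estimated sizes and not the p-values given here.

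Genes named in the text are the 8 members, the 3 genes most correlated with each over clusters with a mean of at least 20 CPM, and at most 4 genes per list by size of change, except that all 5 tested other Sox genes and the 3 ganglionic eminence factors that fell are given, the latter chosen after their values were seen. Beside these, St18, Xist, noncoding neighbours, class markers and the leading genes of clusters are named to say what cells or libraries are. A gene of these lists is not reported here by name. Intervals are 95% and cover counting error only. Of the identifiers in the matrices, 99.6% were in GENCODE M21.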

Additional observations from a re-analysis of the deposited data

Results flagged for a closer look

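Sox10, a SoxE gene of the oligodendrocyte lineage that is no member, gave a signal in cells the comparisons did not use, above the limit that a count of 0 allows. In 33 oligodendrocyte precursor-like cells it was at 182.7 CPM (72 UMIs, exact Poisson interval 143 to 230), where a count of 0 would allow 7.61 CPM. The 4 libraries ranged from 132 to 191 CPM, of which the lowest, WT replicate 2, rests on 3 UMIs in 3 cells and lies at, not above, that library's own limit. The level was 0.295 CPM in neurons and progenitors together.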

How the results depend on the processing

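Between null and WT, no paired analysis was possible because the labels carry no replicate numbers, while stages and subtypes were compared within libraries. The members' calls between neurons and progenitors, and those in LGE-like and interneuron precursor-like neurons, kept their direction and side of the threshold under every alternative run. Between null and WT in progenitors, 3 genes passed, against 213 with library totals, 325 with DESeq2, 923 with no filter on low counts, 77 with doublets kept, 1 in male cells and 8 to 4564 with 1 library left out, where 0 to 6 members passed. In neurons 10 genes passed, against 557 with library totals, 298 with DESeq2, 166 with no filter, 56 without border clusters, 1 in male cells, 6 with equal cells per cluster and 63 to 2769 with 1 library left out, where 0 to 3 members passed. For the stage change between genotypes 120 genes passed, against 43 with DESeq2 and 45 to 209 with 1 library left out, and no member. With strict basal progenitors only, chosen after seeing the data, 7534 genes and 6 members passed against radial glia, in place of 8572 and 7, with Sox1 and Sox2 lost and Sox5 gained. The cause was not tested. No call reversed, while uncalled changes near 0 took either sign. Pools of 2 against 2 libraries limit the comparison between genotypes, and 100 microglia and 153 erythroid cells limit the floor of free RNA.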
